A study of Mus musculus with 18 samples.

Results

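10 genes of the epidermal growth factor (EGF) family were followed through white and brown fat of mice that lack subunit 8 of the COP9 signalosome in adipocytes. They were 6 ligand genes (Btc, Areg, Ereg, Hbegf, Nrg1 and Nrg4) and 4 receptor genes (Egfr, Erbb2, Erbb3 and Erbb4), picked by name from the 55487 genes counted in each of 18 RNA-seq libraries. The set was chosen by its values in brown fat, where Btc and Erbb4 were far lower in the knockouts. The brown fat levels of the 10 genes are therefore given as a description, with no test.

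The COP9 signalosome is a protein complex that removes the ubiquitin-like protein NEDD8 from cullin-RING ubiquitin ligases. Csn8AKO mice carried floxed Csn8 alleles (Csn8 f/f) with Adipoq-Cre, in which the adiponectin promoter drives Cre recombinase in adipocytes. Ctrl mice, labelled WT in the sample sheet, were littermates with the same Csn8 f/f alleles and no Cre. Subcutaneous white fat (sWAT, labelled SF) came from males aged 12 weeks, 4 Ctrl and 4 Csn8AKO, and brown fat (BAT) from males aged 4 weeks, 5 Ctrl and 5 Csn8AKO, so that depot and age cannot be told apart. Each library came from 1 mouse that ate chow and was fasted before collection. The deletion is limited to cells that use the adiponectin promoter, and each library holds the whole tissue.

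The EGF family ligands are made as membrane-bound precursors that proteases release, and they bind receptor tyrosine kinases of the ERBB family. EGFR binds betacellulin (Btc), amphiregulin (Areg), epiregulin (Ereg) and HB-EGF (Hbegf), and ERBB4 binds betacellulin, HB-EGF and the neuregulins. ERBB2 has no known soluble ligand and pairs with the other receptors, and ERBB3 has little kinase activity of its own and signals through its partners. Neuregulin 4 (Nrg4) is a ligand of ERBB4 that brown fat is known to secrete.

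Between 15835721 and 23109603 reads were counted per sWAT library and between 26658593 and 66719937 per BAT library. The ribosomal RNA gene CT010467.1 took 1.73% to 18.9% of the reads of sWAT Ctrl, 3.81% to 46.8% of sWAT Csn8AKO and at most 12.4% of any BAT library. Levels are therefore given as CPM (reads of a gene per 1e6 reads counted in the library) after scaling by TMM, a normalisation that lets few genes of extreme counts weigh little, within each tissue. The targeted gene is Cops8 in the annotation and checks little here, because its count also covers exons outside the deleted part and the cells that keep it. Cops8 read 35.0 ± 0.911 CPM in sWAT Ctrl and 32.2 ± 2.99 in sWAT Csn8AKO (SD, n = 4 each; edgeR adjusted p = 0.623), and 39.4 ± 3.22 in BAT Ctrl against 32.1 ± 3.56 in BAT Csn8AKO (n = 5 each; adjusted p = 0.0211). Of the 8 brown adipocyte markers, the summed level was 2692 to 7248 CPM over the BAT libraries and 12.5 to 87.3 CPM over the sWAT libraries, so that the BAT libraries held these markers and the sWAT libraries little of them. The 6 skeletal muscle markers summed to 116 and 193 CPM in BAT Csn8AKO 1 and 5 against 9.89 to 37.9 CPM in the other BAT libraries, and results in BAT are also given without those 2 libraries where a call is lost or a sign turns.

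Btc, Areg and Ereg lie in 1 cluster on chromosome 5. Epgn (epigen) at chr5:91027464-91035215 is followed by Ereg at chr5:91074622-91093646, Areg at chr5:91139599-91148432 and, after a gap of 209 kb, Btc at chr5:91357261-91402994 on the opposite strand. Erbb4 spans chr1:68032186-69108059 on the minus strand, and Egfr spans chr11:16752203-16918158 on the plus strand. Reference sequences around the start sites, 250 bases before to 50 after, were on hand for 6 of the 10 genes (RefSeq, GRCm38.p6), and for 4 of the 6 the start was the same base as the gene's end or start in the deposited files. Those of the 2 genes that were lowest in BAT Csn8AKO relative to Ctrl, and of Egfr, the receptor with the highest log2 fold change there, are shown so that the starts can be set side by side, with a GC box (GGGCGG on either strand) in capitals:
Btc (chr5:91402945-91403244, minus strand): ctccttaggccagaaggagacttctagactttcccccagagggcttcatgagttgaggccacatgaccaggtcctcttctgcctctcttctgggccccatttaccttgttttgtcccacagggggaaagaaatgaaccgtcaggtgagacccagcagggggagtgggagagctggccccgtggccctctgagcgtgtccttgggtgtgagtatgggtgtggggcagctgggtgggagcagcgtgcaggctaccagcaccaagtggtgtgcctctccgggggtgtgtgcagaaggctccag
Erbb4 (chr1:69108010-69108309, minus strand): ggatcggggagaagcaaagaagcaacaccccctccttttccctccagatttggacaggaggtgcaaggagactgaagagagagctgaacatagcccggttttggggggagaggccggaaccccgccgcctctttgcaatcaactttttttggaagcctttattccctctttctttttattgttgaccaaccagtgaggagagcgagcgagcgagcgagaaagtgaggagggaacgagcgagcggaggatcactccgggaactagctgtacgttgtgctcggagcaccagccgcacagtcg
Egfr (chr11:16751953-16752252, plus strand): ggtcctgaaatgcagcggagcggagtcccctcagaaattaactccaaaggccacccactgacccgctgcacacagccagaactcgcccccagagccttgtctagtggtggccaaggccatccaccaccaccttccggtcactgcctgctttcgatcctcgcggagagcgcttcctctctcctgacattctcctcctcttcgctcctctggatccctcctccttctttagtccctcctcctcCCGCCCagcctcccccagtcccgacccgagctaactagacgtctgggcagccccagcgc
The Btc window was 60.3% G and C, that of Erbb4 55.3% and that of Egfr 62.3%, against a median of 52.7% over the 32851 windows of the same length. Neither the Btc nor the Erbb4 window held a GC box, which 35.7% of all windows held and the Egfr window held once. On both strands, neither held CCAAT (in 37.4% of all windows), the TATA box TATAAA (13.6%), the cAMP response element TGACGTCA (1.79%) or the nuclear receptor core site AGGTCA (16.3%). The direct repeat AGGTCANAGGTCA, which contains that core site, was in 0.0396% of windows and in none of the 6. These matches describe letters in a short window only.

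Btc was the ligand that differed most between genotypes in BAT. Betacellulin is a ligand of EGFR and ERBB4. In BAT Ctrl libraries 1 to 5 Btc read 6.44, 5.98, 6.53, 9.21 and 5.01 CPM, and in BAT Csn8AKO libraries 1 to 5 it read 0.388, 0.473, 0.137, 0.205 and 0.234 CPM. The lowest Ctrl library was above every Csn8AKO library by a wide margin, and the 5 Csn8AKO libraries held 61 Btc reads in all against 1784 in the 5 Ctrl libraries. The log2 fold change was -4.53 ± 0.28 (SE), a level 23.2 times lower, the 6th lowest log2 fold change of 22345 genes tested in BAT. No gene overlaps Btc in the annotation.

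Erbb4 was the receptor that differed most. It read 20.5, 20.8, 18.8, 12.0 and 8.74 CPM in BAT Ctrl 1 to 5 and 0.995, 1.02, 0.412, 1.05 and 0.0668 CPM in BAT Csn8AKO 1 to 5. The groups did not overlap, though Erbb4 varied more among Ctrl libraries than Btc did, and BAT Csn8AKO 5 held 2 reads. The log2 fold change was -4.43 ± 0.48, or 21.5 times lower, the 8th lowest in BAT. Over all genes tested in BAT, the libraries of the 2 genotypes did not overlap for 21.0%, and nothing is read from the members' own lack of overlap, since they were selected on this contrast.

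In a whole tissue, fewer cells of a type and less RNA per cell cannot be told apart, so the adipocyte markers were read in the same libraries. The 10 adipocyte markers summed to 18033 to 22282 CPM in BAT Ctrl and 18299 to 23884 CPM in BAT Csn8AKO, with a median log2 fold change of 0.11, and none was at 0. Adiponectin (Adipoq) read 644 CPM in BAT Ctrl and 687 in BAT Csn8AKO on average. Of the 10, the hormone gene Retn rose (log2 fold change 3.19, edgeR adjusted p = 5.78e-05) and the lipase genes Lipe and Pnpla2 fell (-0.38 and -0.37, adjusted p = 0.0221 and 0.0306). The 8 brown adipocyte markers summed to 2692 to 6187 CPM in BAT Ctrl and 3520 to 7248 CPM in BAT Csn8AKO. Of the 8, Elovl3 rose (3.34, edgeR adjusted p = 0.000819), and Cox7a1 and Otop1 fell (-0.79 and -0.81, adjusted p = 0.00273 and 0.00689). DESeq2 called 1 higher and 3 lower. The part of both lists in the Btc and Erbb4 levels was not tested. Without BAT Csn8AKO 1 and 5, the libraries with skeletal muscle reads, the log2 fold changes were -4.70 for Btc and -4.23 for Erbb4.

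**Figure D1:**
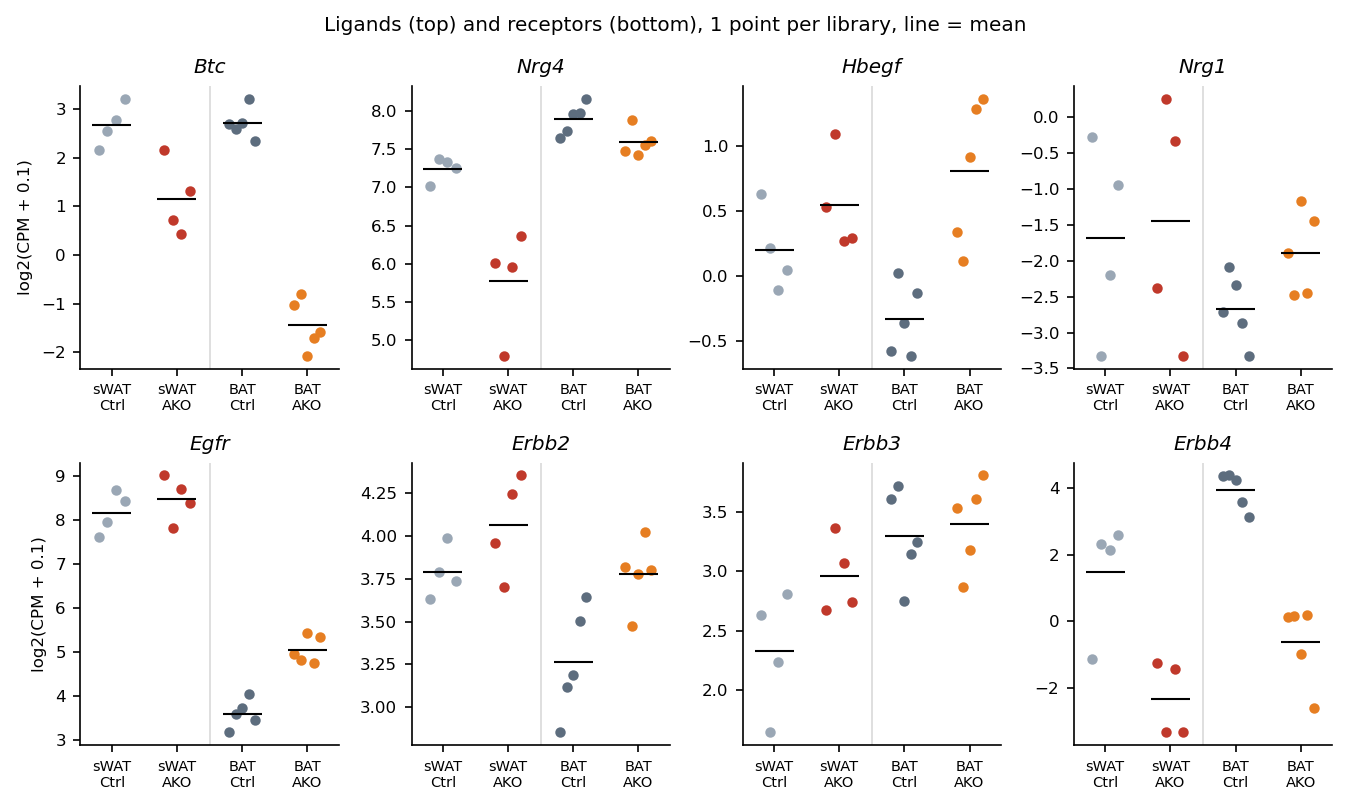
Level of 4 ligand genes (top) and 4 receptor genes (bottom) in each library, as log2(CPM + 0.1) on an axis that differs between panels, with 1 point per library and a line at the group mean (AKO, Csn8AKO). In BAT, Btc reads 5.01 to 9.21 CPM in Ctrl and 0.137 to 0.473 CPM in Csn8AKO, and Erbb4 8.74 to 20.8 CPM against 0.0668 to 1.05 CPM.

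Of the other ligands among the 10 genes, neither of those that could be fitted fell as far as Btc in BAT. The family ligands Egf, Tgfa and Nrg2, outside the 10, fell there too and are given below. Nrg4 was the most abundant of the 10 genes per length of transcript there, and it read 201, 214, 250, 252 and 286 CPM in BAT Ctrl 1 to 5 and 178, 237, 171, 189 and 195 CPM in BAT Csn8AKO 1 to 5. The groups overlapped, with a log2 fold change of -0.31 ± 0.11. Hbegf, whose product binds EGFR and ERBB4, was the 1 ligand of the 3 that could be fitted to read higher, 0.554 to 0.915 CPM in Ctrl and 0.986 to 2.47 CPM in Csn8AKO without overlap (log2 fold change 1.31 ± 0.28). These are 193 and 391 reads in all. In the same libraries the 10 macrophage markers summed to 83.8 to 117 CPM in Ctrl and 282 to 395 CPM in Csn8AKO, 9 of the 10 rose and none was at 0 in a whole group, and their part in the Hbegf difference was not tested.

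Areg, Ereg and Nrg1 were too low to fit in either tissue. Areg had 0 reads in all 10 BAT libraries, which at 3 reads allows a level of up to 0.0111 CPM over the Ctrl group and 0.0138 CPM over the Csn8AKO group, counting error only. Ereg had 0 reads in BAT Ctrl and 3 in BAT Csn8AKO. Nrg1, the ligand of ERBB3 and ERBB4 best known from Schwann cells and heart, had 18 reads in BAT Ctrl and 36 in BAT Csn8AKO. Ereg overlaps an exon of Gm19610 on the opposite strand and Nrg1 one on its own strand, and strand use in the counting is not given in the sources used here. The authors counted unambiguous reads, so reads in the part that Nrg1 shares would be left out. Those in the part that Ereg shares would be left out too if strand was not used.

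Among the other receptors in BAT, Egfr stood out in the opposite direction to Erbb4. It read 8.92, 11.9, 13.1, 16.4 and 10.8 CPM in BAT Ctrl 1 to 5 and 30.7, 27.8, 42.5, 26.7 and 40.1 CPM in BAT Csn8AKO 1 to 5. The groups did not overlap and the log2 fold change was 1.45 ± 0.17, or 2.74 times higher. Erbb2 read 9.67 ± 2.12 CPM in Ctrl and 13.7 ± 1.83 in Csn8AKO with overlap (SD, n = 5 each; log2 fold change 0.51 ± 0.15), and Erbb3 read 9.98 ± 2.58 and 10.7 ± 2.63 CPM (0.11 ± 0.20, and -0.07 without the 2 libraries of skeletal muscle reads). An exon of Erbb2 overlaps one of Mien1 on the opposite strand. The 7 fibroblast and progenitor markers, a cell class known for Egfr, all rose in BAT and summed to 484 to 795 CPM in Ctrl and 1109 to 2197 CPM in Csn8AKO. Of the 8 Schwann cell markers, a class known for Erbb3, 6 rose, and they summed to 17.8 to 20.1 CPM in Ctrl and 25.2 to 62.8 CPM in Csn8AKO. No gene of either list was at 0 in a whole group, and their part in the receptor levels was not tested.

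The receptor levels per kilobase of exon changed places accordingly. Of the summed CPM per kilobase of the 4 receptors in BAT Ctrl, Erbb2 made up 31.7% ± 7.78, Erbb3 27.9% ± 6.05, Erbb4 22.1% ± 7.25 and Egfr 18.3% ± 4.18 (SD, n = 5). In BAT Csn8AKO, Egfr made up 39.8% ± 6.16, Erbb2 35.6% ± 3.75, Erbb3 23.8% ± 3.79 and Erbb4 0.825% ± 0.561 (n = 5). Of the 6 ligands, Nrg4 made up 96.0% ± 0.872 of the summed level per kilobase in BAT Ctrl and 98.6% ± 0.417 in BAT Csn8AKO. The share of Btc was 3.61% ± 0.89 in Ctrl and 0.193% ± 0.0802 in Csn8AKO.

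**Figure D2:**
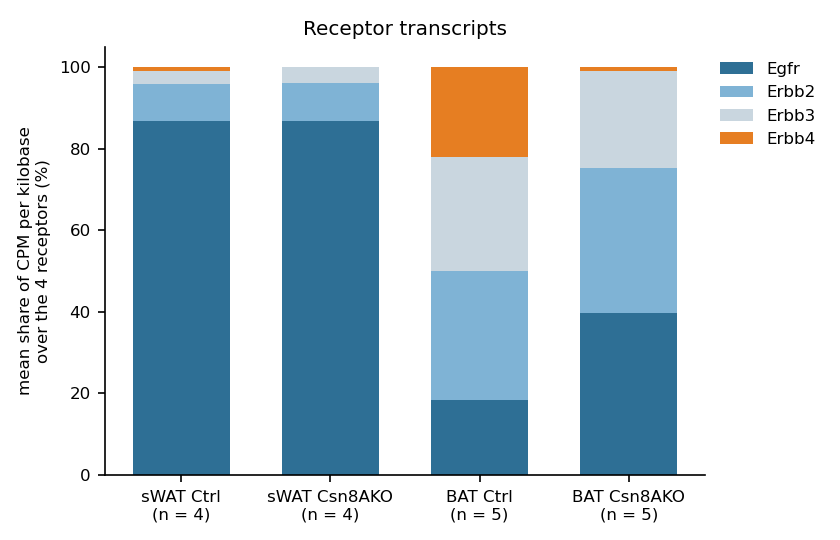
Mean share of each receptor gene in the summed CPM per kilobase of the 4 receptors, in percent, 1 stacked bar per group. Erbb4 makes up 22.1% of the BAT Ctrl bar and 0.825% of the BAT Csn8AKO bar, and Egfr makes up 86.8% and 86.9% of the bars of sWAT.

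Ordered by CPM per kilobase, the 10 genes stood differently in each group. In BAT Ctrl, Nrg4 (39.6 ± 5.54) stood above Erbb2 (1.86 ± 0.406), Erbb3 (1.66 ± 0.429), Btc (1.47 ± 0.345), Erbb4 (1.31 ± 0.443) and Egfr (1.08 ± 0.247), which all overlapped their neighbours in the order. Hbegf (0.146 ± 0.0323 CPM per kilobase) stood below them without overlap, and Nrg1, Areg and Ereg were at or near 0. In BAT Csn8AKO, Nrg4 (31.9 ± 4.22) was followed by Egfr (2.96 ± 0.643) and Erbb2 (2.63 ± 0.35), whose ranges overlapped, then Erbb3 (1.78 ± 0.437), Hbegf (0.362 ± 0.139), and Btc (0.0636 ± 0.0306) with Erbb4 (0.0575 ± 0.0362). Btc thus stood below Hbegf without overlap in Csn8AKO and above it without overlap in Ctrl. In sWAT Ctrl, Egfr (26.3 ± 8.46) and Nrg4 (25.0 ± 2.59) led with overlapping ranges, ahead of Erbb2 (2.64 ± 0.279), Btc (1.44 ± 0.443), Erbb3 (0.859 ± 0.284), Erbb4 (0.315 ± 0.198) and Hbegf (0.221 ± 0.0559), of which Btc overlapped Erbb3 and Erbb4 overlapped Hbegf. In sWAT Csn8AKO, Egfr (32.7 ± 10.9) stood above Nrg4 (9.73 ± 3.76) without overlap.

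The rule that chose the genes names their values in brown fat and not in white fat, though earlier results of both tissues were known when they were chosen. In white fat the same comparison was tested with edgeR's quasi-likelihood test, adjusted over all 18843 genes tested. Nrg4 was the 1 member of the 6 tested whose change passed the test. It read 130, 165, 161 and 153 CPM in sWAT Ctrl 1 to 4 and 64.2, 27.7, 61.9 and 82.5 CPM in sWAT Csn8AKO 1 to 4. Every Csn8AKO library was below every Ctrl library, and Nrg4 fell by 1.37 ± 0.28 on the log2 scale (adjusted p = 0.0238), a level 2.58 times lower. Of all genes tested in sWAT, 3.00% were called lower and 2.30% higher. The adjusted p of Nrg4 was 0.0652 to 0.0781 without Csn8AKO 1, Csn8AKO 3, Ctrl 2, Ctrl 3 or Ctrl 4 and 0.0023 to 0.0336 without each of the other 3 libraries, with log2 fold changes of -1.58 to -1.13 over the 8. Exons of Nrg4 overlap those of Fbxo22 and Gm15625 on the opposite strand. The authors counted unambiguous reads, so reads in the shared parts would be left out of the count if strand was not used.

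Btc pointed the same way in sWAT as in BAT and missed the threshold. It read 4.39, 5.77, 6.81 and 9.14 CPM in sWAT Ctrl 1 to 4 and 4.35, 1.54, 1.24 and 2.39 CPM in sWAT Csn8AKO 1 to 4. The ranges met at their ends, Ctrl 1 just above Csn8AKO 1, and the log2 fold change was -1.44 ± 0.40 (adjusted p = 0.0668). The adjusted p lay between 0.00803 (DESeq2) and 0.185 (without Ctrl 4) over the alternatives, and it passed without Csn8AKO 1 (-1.92, adjusted p = 0.0295). Nrg4, Btc and Erbb4 did not overlap between genotypes in sWAT, as was so for 14.0% of the genes tested.

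Erbb4 was low in sWAT and did not pass the filter on low counts there. It read 0.362, 4.91, 4.32 and 5.97 CPM in sWAT Ctrl 1 to 4 and 0.324, 0, 0.276 and 0 CPM in sWAT Csn8AKO 1 to 4, from 293 and 11 reads in all. Ctrl 1 stood close to the Csn8AKO libraries and the other 3 Ctrl libraries well above them. An exact two-sided permutation test on log2(CPM + 0.1) gave p = 0.0286 for this gene alone, unadjusted and the smallest value that 4 against 4 can give. Groups that do not overlap always give that value, so it adds nothing to their lack of overlap. Without the filter the edgeR log2 fold change was -4.63 ± 1.20 (adjusted p = 0.14).

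The other 4 members tested in sWAT were not called. Egfr read 195 to 408 CPM in Ctrl and 224 to 514 CPM in Csn8AKO (log2 fold change 0.31 ± 0.29, adjusted p = 0.609). Erbb2 read 13.8 ± 1.46 and 16.9 ± 3.36 CPM (SD, n = 4 each; 0.30 ± 0.17, edgeR adjusted p = 0.391), Erbb3 read 5.17 ± 1.71 and 7.83 ± 1.79 CPM (0.60 ± 0.28, adjusted p = 0.262), and Hbegf read 1.07 ± 0.27 and 1.40 ± 0.438 CPM (0.39 ± 0.33, adjusted p = 0.572). Areg had 4 reads in sWAT Ctrl and 1 in sWAT Csn8AKO, and Ereg had 0 and 4, all 4 in Csn8AKO 2. Nrg1 ranged from 0 to 24 reads per library with no order by genotype.

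Adipocyte markers were lower in sWAT of Csn8AKO mice. The 10 markers summed to 24888 to 34128 CPM in sWAT Ctrl and 9834 to 21491 CPM in sWAT Csn8AKO, 4 of the 10 fell (Cidec, Lipe, Pnpla2 and Car3), and their median log2 fold change was -0.81. The library with the lowest sum, Csn8AKO 2, also had the lowest Nrg4. The lowest Btc was in Csn8AKO 3, and Erbb4 had 0 reads in both Csn8AKO 2 and Csn8AKO 4. The macrophage markers summed to 777 to 1135 CPM in Ctrl and 1282 to 2221 CPM in Csn8AKO, and 7 of the 10 rose. The 8 brown adipocyte markers summed to 50.2 to 87.3 CPM in sWAT Ctrl and 12.5 to 28.7 CPM in sWAT Csn8AKO without overlap, Cox8b and Otop1 fell (log2 fold change -1.92 and -3.38, edgeR adjusted p = 0.0205 and 0.0149), and none was at 0 in a whole group. The part of these 3 marker lists in the fall of Nrg4 and in the Btc and Erbb4 values was not tested. Whether any member changed more in BAT than in sWAT was not tested either, because the BAT contrast chose the genes.

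**Figure D3:**
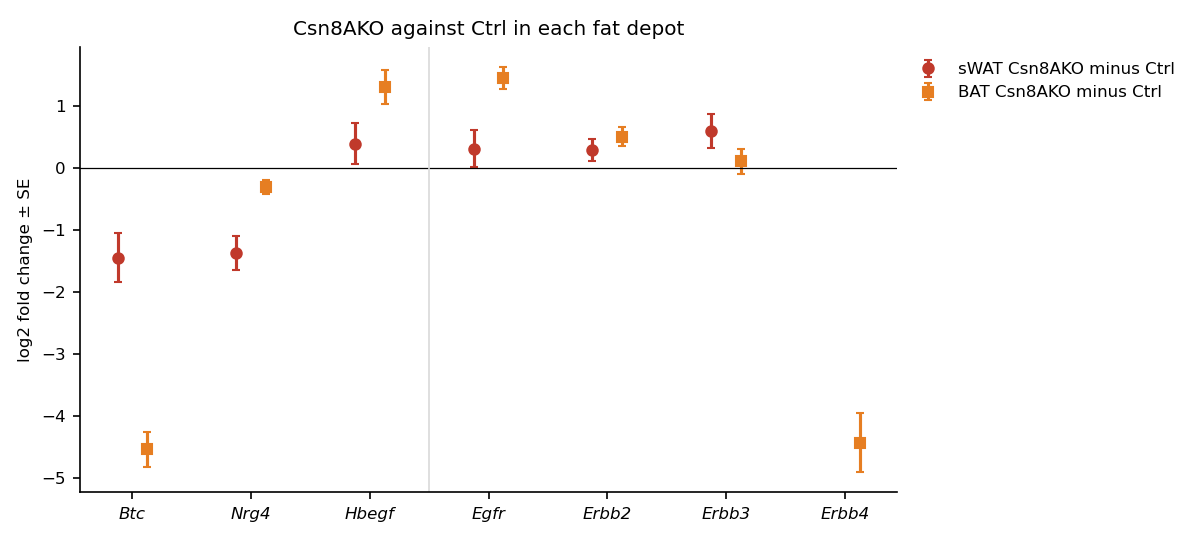
log2 fold change of the 7 members that could be fitted (3 ligands, then 4 receptors), Csn8AKO minus Ctrl, in sWAT (circles) and BAT (squares), with the SE as bars. Btc is at -1.44 in sWAT and -4.53 in BAT, Nrg4 at -1.37 and -0.31, and Erbb4 has a BAT point only.

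The 2 depots of Ctrl mice differed in their receptors. Of the 7 members tested between BAT and sWAT of Ctrl mice, 3 were higher in BAT and 2 lower, where 25.7% of the 22381 genes tested were called higher in BAT and 27.0% lower. Egfr was lower in BAT by 4.56 ± 0.26 on the log2 scale, a level 23.6 times lower (edgeR adjusted p = 1.19e-07), the largest difference of the 7. Erbb4 was 4.28 times higher in BAT (log2 2.10 ± 0.63, adjusted p = 0.0216), Erbb3 1.99 times higher (1.00 ± 0.25, adjusted p = 0.00485) and Nrg4 1.63 times higher (0.71 ± 0.13, adjusted p = 0.000393). Erbb2 was lower in BAT (-0.46 ± 0.16, adjusted p = 0.0306), a call lost without any 1 of BAT Ctrl 1, 2 or 3 or sWAT Ctrl 2, 3 or 4 (adjusted p up to 0.103). Erbb3 missed the threshold when scaled by library size alone (0.75, adjusted p = 0.0519). Btc (0.07 ± 0.23, adjusted p = 0.822) and Hbegf (-0.55 ± 0.28, adjusted p = 0.113) were not called. These differences join depot with age, since the BAT mice were 4 weeks old and the sWAT mice 12 weeks old. The BAT Ctrl libraries are also part of the contrast that chose the genes, for the fall of Btc and Erbb4. That choice favours genes that are high in BAT Ctrl, so the calls and adjusted p values here are not independent of it. Erbb4 also did not pass the filter on low counts in sWAT alone, and its call here is a description only.

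The 5 EGF family ligands outside the 10 were read as well. Egf, Tgfa and Nrg2, ligands of EGFR (Egf, Tgfa) and of ERBB3 and ERBB4 (Nrg2), all fell in BAT Csn8AKO, while Epgn had at most 14 reads in a group and Nrg3 had 0 in every library. In BAT, 16.0% of the 22345 genes tested were called higher and 15.8% lower. Nrg2 read 1.53 ± 0.571 CPM in BAT Ctrl and 0.639 ± 0.144 in BAT Csn8AKO (SD, n = 5 each; log2 fold change -1.26 ± 0.27, edgeR adjusted p = 0.00303). Egf read 3.88 ± 0.939 and 1.64 ± 0.625 CPM (-1.20 ± 0.25, adjusted p = 0.00234). Tgfa read 2.97 ± 0.713 and 1.87 ± 0.451 CPM with overlap (-0.68 ± 0.21, adjusted p = 0.0224), a call lost without Csn8AKO 3, 4 or 5 or Ctrl 2 or 5 (adjusted p up to 0.0636), with library size after the ribosomal RNA gene was left out (adjusted p = 0.0509) and without the 2 libraries of skeletal muscle reads (-0.58, adjusted p = 0.122). In sWAT none of the 3 was called by edgeR or DESeq2 and none had an unadjusted p under 0.05, with log2 fold changes of -0.54 for Egf, 0.27 for Tgfa and 0.28 for Nrg2. The difference between the tissues was not called for these 3 ligands (adjusted p = 0.0799 for Nrg2, 0.203 for Tgfa and 0.51 for Egf).

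Downstream of and around the receptors, 67 pathway genes were read, these 5 ligands included. In BAT, 65 passed the filter, of which 17 rose and 12 fell. Their median log2 fold change was 0.16 against 0.01 over all genes tested. Of all genes tested in BAT, 16.0% were called higher and 15.8% lower, the shares to set beside each BAT count of the lists below. With the 2 libraries of skeletal muscle reads left out, 9 rose and 9 fell. Scaled by library size alone, 22 rose of 30 called, and with the ribosomal RNA gene also left out 27 rose of 34, with the median of all genes shifted to 0.14 and 0.15. In sWAT, 64 passed the filter, of which Adam12 rose and Lrig1 fell (median log2 fold change 0.13, against 0.03 over all genes), and DESeq2 called 6 higher and 4 lower. Of all genes tested in sWAT, edgeR called 2.30% higher and 3.00% lower.

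Of the 10 genes that process ligands, 5 rose and 1 fell in BAT. Adam19, a metalloprotease that can shed neuregulin, read 13.5 ± 0.846 CPM in BAT Ctrl and 33.1 ± 6.91 in BAT Csn8AKO (SD, n = 5 each; log2 fold change 1.29 ± 0.13, edgeR adjusted p = 5.69e-06). Bace1, a protease that cleaves neuregulin 1, fell by 0.56 ± 0.08 (adjusted p = 9.26e-05). The sheddase gene Adam17, its relative Adam15 and the iRhom genes Rhbdf1 and Rhbdf2, which carry ADAM17 to the cell surface, were the other 4 that rose. The Rhbdf2 call was lost without Csn8AKO 4, Ctrl 3 or the 2 libraries of skeletal muscle reads (adjusted p up to 0.0551). In sWAT, Adam12, a metalloprotease that can shed HB-EGF, rose by 1.22 ± 0.13 (adjusted p = 0.0018), a call lost when scaled by library size alone (adjusted p = 0.0575). Adam19 was not called in sWAT (0.41 ± 0.13, adjusted p = 0.112).

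Of the 14 adaptors and kinases from the receptor to ERK, 2 were higher in BAT (the adaptor genes Grb2 and Shc1) and 3 lower. Over all genes tested in BAT these shares were 16.0% and 15.8%, so nothing is read from the counts of this list. Sos2, an exchange factor for RAS, read 82.1 ± 5.28 CPM in BAT Ctrl and 56.6 ± 7.46 in BAT Csn8AKO (SD, n = 5 each; log2 fold change -0.54 ± 0.09, edgeR adjusted p = 0.00051). Gab1, a docking protein, fell by 0.54 ± 0.11 (adjusted p = 0.00203), a call lost when scaled by library size alone (adjusted p = 0.0648). In sWAT none of the 14 was called by edgeR, with 4 at an unadjusted p under 0.05 and 1 higher and 1 lower by DESeq2. The smallest adjusted p values there were those of Ptpn11, the SHP2 phosphatase gene (-0.55 ± 0.15, adjusted p = 0.0654), and of Gab1 (-0.53 ± 0.16, adjusted p = 0.0907).

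Of the 7 PI3K and AKT genes, Akt1 rose and Akt2 and Pik3r2 fell in BAT. The Pik3r2 call (-0.21, edgeR adjusted p = 0.0434) was lost with library size alone (-0.07, adjusted p = 0.652), without the 2 libraries of skeletal muscle reads (adjusted p = 0.0665) and without any 1 library but Csn8AKO 2, Csn8AKO 5 or Ctrl 4. Akt1 read 164 ± 7.14 CPM in BAT Ctrl and 233 ± 22.9 in BAT Csn8AKO (SD, n = 5 each; 0.51 ± 0.08, edgeR adjusted p = 0.00044), and Akt2, the AKT gene of insulin action in fat, read 548 ± 34.0 and 386 ± 48.9 CPM (-0.51 ± 0.10, adjusted p = 0.00151). In sWAT none of the 7 was called by edgeR (3 at an unadjusted p under 0.05), and DESeq2 called 2 lower. The log2 fold change there was -0.83 ± 0.23 for Akt2 (adjusted p = 0.0706) and -0.64 ± 0.20 for Pik3cb, a catalytic subunit of PI3K (adjusted p = 0.0929).

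Among the 19 inhibitors of the receptors and of the pathway, 5 rose (Ptpn1, Cbl, Spry2, Dusp4 and Dusp5) and 2 fell (Lrig1 and Socs5) in BAT. Without the 2 libraries of skeletal muscle reads, 9 pathway genes over all lists rose in place of 17. Dusp4 kept its call there (edgeR adjusted p = 0.00732), and most of the other rises in this list were lost. Lrig1, whose product promotes the breakdown of ERBB receptors, was the 1 gene of the 67 that edgeR called lower in both tissues. It went from 98.0 ± 18.6 to 51.2 ± 11.1 CPM in BAT (SD, n = 5 each; log2 fold change -0.94 ± 0.16, edgeR adjusted p = 0.000658) and from 83.4 ± 9.54 to 47.3 ± 8.96 CPM in sWAT (SD, n = 4 each; -0.82 ± 0.16, adjusted p = 0.0178). The sWAT call was lost without Csn8AKO 3 or Ctrl 2, 3 or 4 (adjusted p 0.058 to 0.0725) and with library size alone (adjusted p = 0.146). Akt2, lower in BAT and not called by edgeR in sWAT, was called lower in sWAT by DESeq2 (-0.82, adjusted p = 0.0123). Dusp4, an ERK phosphatase, rose in BAT by 1.23 ± 0.22 (adjusted p = 0.00147), and Spred1, an inhibitor of RAS and ERK, was not called in sWAT (0.56 ± 0.17, adjusted p = 0.085).

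Of the 12 genes that ERK signalling is known to induce, 4 rose and 1 fell in BAT. Phlda1 (0.77 ± 0.21, edgeR adjusted p = 0.0131), Etv5 (0.39 ± 0.14, adjusted p = 0.0485) and Fos (3.12 ± 0.94, adjusted p = 0.0341) rose there with Ier2 (0.62 ± 0.21, adjusted p = 0.0409), and Ier3 fell (-0.65 ± 0.18, adjusted p = 0.0116). Without the 2 libraries of skeletal muscle reads, the calls of Phlda1 (adjusted p = 0.0739), Etv5 (0.105), Fos (1.74 on the log2 scale, adjusted p = 0.174) and Ier2 (adjusted p = 0.166) were all lost. With 1 library left out, the call of Etv5 held only without Csn8AKO 2 or Ctrl 4 (adjusted p up to 0.121), that of Ier2 only without Csn8AKO 2 or Ctrl 1 (up to 0.0823) and that of Fos only without Csn8AKO 2, Csn8AKO 3 or Ctrl 1 (up to 0.0792). The Ier3 call was lost with scaling by library size alone (adjusted p = 0.0872). In sWAT none of the 11 tested was called by edgeR (2 at an unadjusted p under 0.05), and DESeq2 called 2 higher. The log2 fold changes there were 0.65 ± 0.18 for Etv5 (adjusted p = 0.0723) and 1.47 ± 0.62 for Fos (adjusted p = 0.238).

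**Figure D4:**
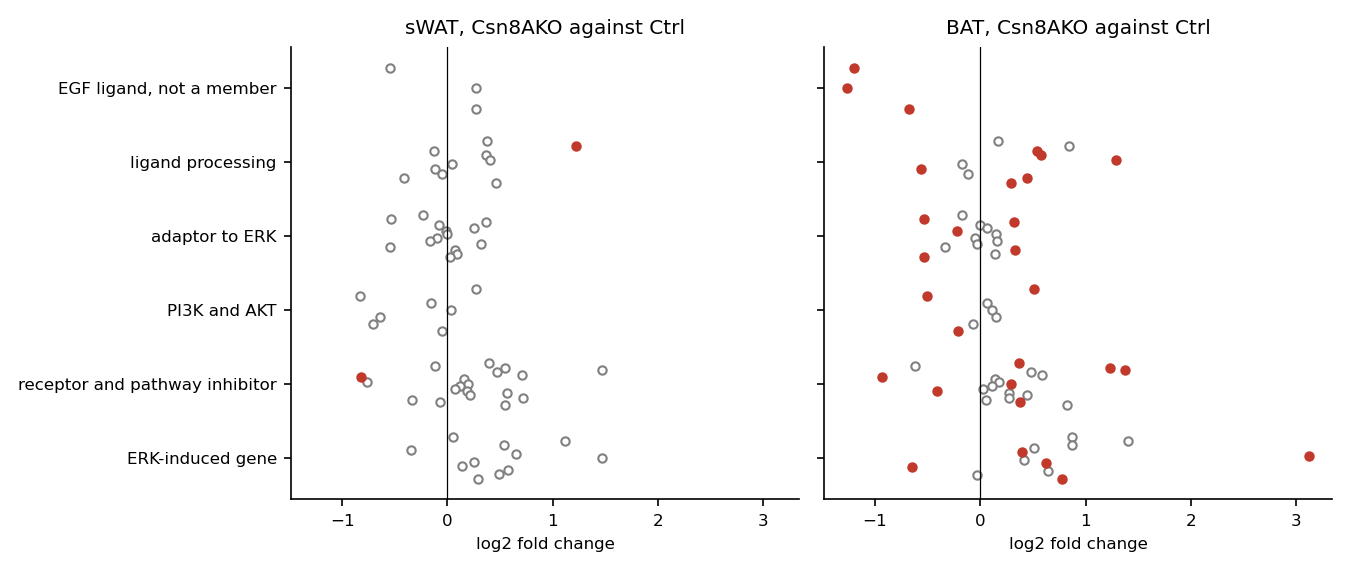
log2 fold change, Csn8AKO against Ctrl, of each pathway gene that could be fitted, by list, in sWAT (left) and BAT (right), with filled points for genes at an edgeR adjusted p under 0.05. In sWAT 2 points are filled, Adam12 and Lrig1, and in BAT 29 are, 17 of them above 0.

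Whether the change of a pathway gene differed between tissues was tested in 1 model of all 4 groups. Of the 64 genes tested, 1 differed, Adam19, in a test that called 2.36% of all 22509 genes. The change of Adam19 was higher in BAT by 0.87 ± 0.18 on the log2 scale (edgeR adjusted p = 0.0109). Depot and age cannot be told apart in this difference.

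The genes around Btc and Erbb4 on the chromosome were read in BAT, in a window of 500 kb on each side that was chosen after the levels of the 10 genes were known. Near Btc, 6 genes could be tested, and none fell by edgeR or DESeq2 or at an unadjusted p under 0.05. Parm1, the nearest at 115 kb, read 228 CPM in Ctrl and 182 in Csn8AKO (log2 fold change -0.33 ± 0.24, adjusted p = 0.337), that of Mthfd2l was -0.26 ± 0.14 (adjusted p = 0.163), and the chemokine gene Cxcl1 rose (2.95 ± 0.71, adjusted p = 0.00767) from a level of 0.15 CPM. Near Erbb4, all 5 genes tested fell. Ikzf2, which encodes the zinc finger protein Helios and lies 423 kb from Erbb4, read 26.5 CPM in Ctrl and 10.4 in Csn8AKO (-1.36 ± 0.18, adjusted p = 0.000106). The other 4 were unnamed gene models of 0.505 to 1.18 CPM in Ctrl. Gm16076 lies within Erbb4 on the same strand (-3.32 ± 0.53, adjusted p = 0.000329), and its reads and those of unspliced Erbb4 RNA cannot be told apart. Gm29114 and Gm29112 overlap Ikzf2 in position, so that the 5 are not 5 separate loci.

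**Figure D5:**
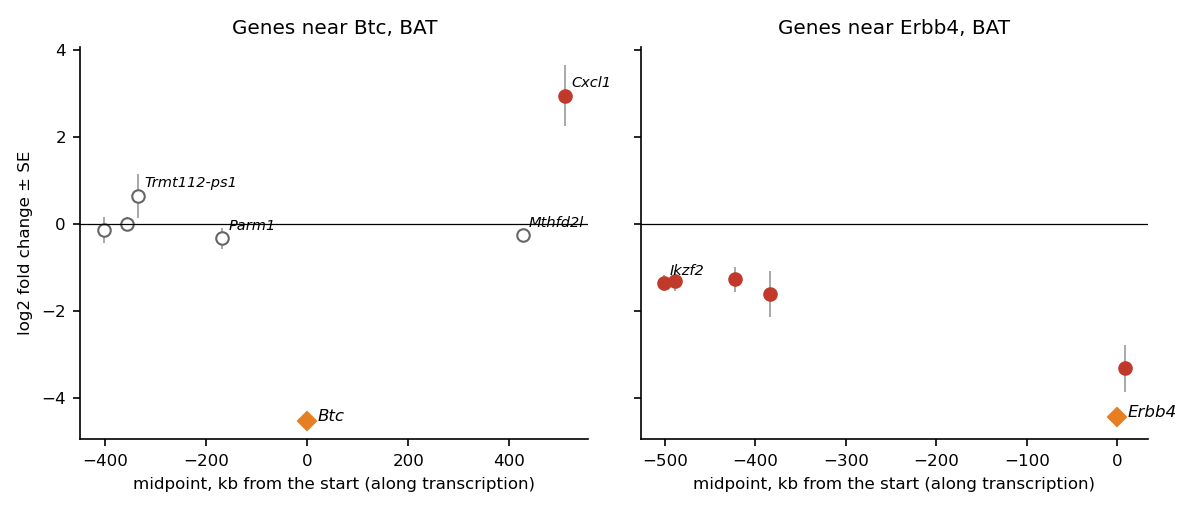
log2 fold change in BAT, Csn8AKO minus Ctrl, of the genes tested within 500 kb of Btc (left) and of Erbb4 (right), by the distance of their midpoint from the gene's start along transcription in kb, with the SE as bars. Filled circles passed the test, open circles did not, and diamonds are Btc (-4.53) and Erbb4 (-4.43), which have no test.

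The genes with profiles most like those of Btc and Erbb4 over the 18 libraries were found by the root mean square (RMS) distance of their centred log2 CPM. Compared were 11553 genes with a mean log2 CPM of at least 1 in BAT Ctrl and a symbol that is no clone or predicted name. This is a description with no test. Nearest to Btc were Il17re, a receptor chain for interleukin 17C (0.86 log2 units), Slc16a7, a monocarboxylate transporter (0.93), Fsd2 (0.97), Hpd, an enzyme of tyrosine breakdown (0.97), and Svip (0.97). Il17re read 11.0 CPM in BAT Ctrl and 0.997 in BAT Csn8AKO, and 7.60 and 2.64 CPM in sWAT Ctrl and Csn8AKO. Nearest to Erbb4 were Ccdc151 (1.66), Ctf1, the cytokine cardiotrophin 1 (1.68), Fbp2, a fructose bisphosphatase (1.71), Thrsp, a gene of lipid synthesis (1.72), and Myh14, a non-muscle myosin (1.73). Erbb4 was farther from its nearest gene than Btc from its own. Thrsp read 2331 CPM in BAT Ctrl and 1029 in BAT Csn8AKO, and 737 and 111 CPM in sWAT. Btc and Erbb4 were 2.28 log2 units from each other. Of the members compared, Nrg4 (2.04), Erbb2 (2.05) and Erbb3 (2.19) were nearer to Btc than Erbb4 was, and Hbegf, Nrg1 and Egfr were farther. Nrg4 (2.26) was about as near to Erbb4 as Btc was, and the other members compared were farther.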

How the data were processed

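Total RNA of sWAT and BAT was depleted of ribosomal RNA, primed at random and sequenced in pairs of 150 bases. Per the study's methods, the authors aligned reads with STAR to the Ensembl mouse genome and counted reads that were uniquely aligned and unambiguous per gene with featureCounts. The deposited files hold the raw count of each gene and the authors' CPM, FPKM and TPM, which were checked against the counts (largest difference 4.7e-10) and not used further. Genes were filtered with filterByExpr (minimum count 10) and tested with edgeR 4.0.16 (TMM, quasi-likelihood test, Benjamini-Hochberg adjustment over all genes tested, threshold 0.05) within each tissue, with the SE taken from the test statistic. DESeq2 1.42.0 and limma 3.58.1 were alternatives. The edgeR, DESeq2 and limma voom fits of 2 groups were tested on simulated data, and the other steps were not shown to be. A few genes of the lists and of the likeness ranking are not reported here and were left out before genes were counted or named. The members and gene lists were chosen with earlier results of these data known. Named were all members, all other EGF family ligands, the 2 genes of smallest adjusted p per pathway list and tissue, and the 5 genes most like Btc and Erbb4. Genes that make up a count of 5 or fewer were named too, after their values were seen. Libraries of a group were separate mice, and no pair of libraries looked like repeats. Counting error at 3 reads sets the floors.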

Additional observations from a re-analysis of the deposited data

Results flagged for a closer look

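The change of Adam19 was higher in BAT than in sWAT by 0.87 on the log2 scale, by the interaction term of edgeR's quasi-likelihood test over all 4 groups (adjusted p = 0.0109), among 19 named pathway genes tested. The tissues came from mice of different age, which cannot be told apart from the depot. Dixon's test flagged no library over 32 sets of 4 or 5 libraries read for the members, of which chance flags about 1 in 20. A test on so few libraries can miss one that stands apart. Erbb4 read 0.362 CPM in sWAT Ctrl 1 against 4.32 to 5.97 CPM in sWAT Ctrl 2 to 4.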

How the results depend on the processing

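In sWAT, 1 member was called lower. It was 2 with DESeq2, with limma voom and with no filter (Btc added), 3 in a joint fit of all 4 groups (Btc and Erbb4 added), 0 with the replicate number as a block, and 0 to 2 with 1 library left out. Erbb4 passed the filter in the joint fit only with the BAT libraries added, which the rule used, so that call is no further support. The count of 2 came without sWAT Ctrl 1, its low library, where Erbb4 (edgeR adjusted p = 0.00904) was called beside Nrg4. Of the pathway genes in sWAT, 1 was called higher and 1 lower. The higher count was 6 by DESeq2, 7 by limma voom and in the joint fit, 2 with the replicate block, 0 with library size alone, and 1 to 2 with 1 library left out. The lower count was 4 by DESeq2 and limma voom, 5 in the joint fit, 2 with no filter and with library size after the ribosomal RNA gene was left out, 0 with library size alone, with the replicate block and with a log2 fold change of at least 1, and 0 to 3 with 1 library left out. All genes called in sWAT were 1000, and 1946 by DESeq2, 2155 by limma voom, 2463 from a joint fit of the 4 groups, 434 with library size alone, 299 with the replicate block and 326 to 1477 with 1 library left out. In BAT, the 17 pathway genes called higher were 9 without the 2 libraries of skeletal muscle reads, 27 with library size after the ribosomal RNA gene was left out, and 4 with a log2 fold change of at least 1, and the 12 called lower were 7 and 2 under the last 2. With 1 library left out they were 13 to 22 and 9 to 15. Between Ctrl tissues, 3 members higher and 2 lower became 1 and 1 with a log2 fold change of at least 1, and 3 and 1 to 2 with 1 library left out. These counts use the BAT Ctrl libraries, which took part in the choice of the genes. The sign of 3 values near 0 turned. Btc between Ctrl tissues was -0.11 with library size alone, -0.22 with the ribosomal RNA gene also left out, -0.042 with limma voom, and -0.0768 to 0.29 with 1 library left out. Tgfa in sWAT was -0.0046 with limma voom and -0.0744 to 0.45 with 1 library left out. Erbb3 in BAT was -0.0731 without the 2 libraries of skeletal muscle reads and as low as -0.0114 with 1 library left out. The cause of these shifts was not tested, and the settings with skeletal muscle reads or the ribosomal RNA gene left out were chosen after seeing the data.

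The replicate numbers gave no pairing, since libraries of the same number in the 2 genotypes deviated together with correlations of -0.42 to 0.24 in sWAT and -0.13 to 0.14 in BAT, and only Csn8AKO 1 and 5 of BAT were closest to their own number. With the replicate number as a block, Nrg4 in sWAT had an adjusted p of 0.0641, Lrig1 in sWAT of 0.0673 Erbb4 between Ctrl tissues of 0.0638, and in BAT Etv5 of 0.0502, Pik3r2 of 0.0526 and Fos of 0.0529, and the block changed no other call among the members and pathway genes given here by name. In BAT it left 18 pathway genes higher and 11 lower, and the log2 fold change at -4.57 for Btc and -4.53 for Erbb4. Over all alternatives, the BAT log2 fold change of Btc stayed between -4.78 and -4.38 and that of Erbb4 between -4.62 and -4.16. Erbb4, Areg, Ereg and Nrg1 did not pass the filter on low counts in sWAT.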

Other observations

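Other cell classes were read in the same libraries. The 7 endothelial cell markers summed to 779 to 1049 CPM in BAT Ctrl and 845 to 1149 CPM in BAT Csn8AKO, where 2 rose, and to 515 to 608 and 394 to 626 CPM in sWAT, where none was called by edgeR and DESeq2 called 1 lower (1 at an unadjusted p under 0.05). Of the 4 smooth muscle markers, 3 rose in BAT, with sums of 94.7 to 148 CPM in Ctrl and 124 to 183 CPM in Csn8AKO. The 6 B and T cell markers summed to at most 5.51 CPM in any BAT library, and ranged from 4.56 to 365 CPM over sWAT libraries without order by genotype. The 7 epithelial cell markers, a class known for Areg and Ereg, summed to at most 1.19 CPM in any BAT library and at most 11.4 CPM in any sWAT library. The 6 neutrophil markers summed to 5.67 to 7.65 CPM in sWAT Ctrl and 12.3 to 21.1 CPM in sWAT Csn8AKO, of 3 tested 1 rose, and in BAT to 1.06 to 1.97 CPM and 2.48 to 4.25 CPM, of 2 tested 1 rose.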
